A study of Drosophila melanogaster with 33 samples.

Results

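Gene expression in the Drosophila melanogaster midgut was compared between 8 h and 10 h after puparium formation (APF), the interval that the prepupal rise of the steroid hormone ecdysone is taken to span. The comparison set the 3 arrays of 10 h against the 3 arrays of 8 h, 6 of the 33 arrays of a time course with 11 stages from 18 h before puparium formation (BPF) to 12 h after it. A probe was tested where it had 2 or more values in each stage, which 11866 of the 14064 probes with any value did. Hormone was not measured, so the comparison is described by its 2 stages.

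All groups were midgut RNA of the wild-type Canton S strain, staged from puparium formation, and they differed only in stage. Beside 8 h and 10 h, the arrays of 6 h, 12 h, 18 h BPF, 4 h BPF, 3 h, 4 h, 5 h and the moment of puparium formation (0 h) were used, 3 for each stage. Per the labels, replicate hybridizations used independent samples, RNA was amplified by in vitro transcription, and the stage sample (Cy5) was hybridized against a midgut reference (Cy3) mixed from 10 stages, 10 h being the stage left out. Every value is a log2 ratio of stage to reference, so a level is a level relative to that mixture and a change is a difference of log2 ratios.

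Ecdysone acts through a heterodimer of the nuclear receptors EcR and Ultraspiracle, and its pulses induce a small set of early transcription factors that regulate batteries of tissue-specific genes. A large pulse at the end of larval life starts metamorphosis, and a smaller one in the late prepupa precedes head eversion. In the midgut the larval epithelial cells are by then being removed by programmed cell death and autophagy, while a new epithelium has formed around them from progenitor cells. The dying larval epithelium ends up inside the new gut as a compact mass.

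The 8 h arrays a, b and c held 9197, 11398 and 12705 values, and the 10 h arrays 9676, 13502 and 13763. Their medians lay between -0.02 and 0.02. Among the 8 h arrays correlations over probes were 0.80 to 0.86, and among the 10 h arrays 0.59 to 0.75. Of the 8 h arrays, b lay closest to 10 h, with correlations of 0.72, 0.77 and 0.69 to 10 h a, b and c, against 0.69, 0.65 and 0.60 for 8 h a and 0.57, 0.59 and 0.62 for 8 h c. The 10 h array c had the narrowest spread of values, with an SD over probes of 0.46 against 0.81 and 0.64 in a and b. Among the 74 probes called higher that had all 6 values, 8 h b was the 8 h array nearest to 10 h in 50, and 10 h c the 10 h array nearest to 8 h in 49. For the 63 such probes called lower the numbers were 43 and 40. With 3 arrays a stage, their number sets the precision.

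At 10 h, genes for a chitinase, an alpha-galactosidase family enzyme, solute carriers, some cytochrome P450 enzymes and the caspase Damm were called higher than at 8 h. Some genes for Osiris proteins, chitin deacetylases, glutathione transferases, amino acid transporters and DNA replication were called lower. Many calls in both groups were lost when a single array was left out. Of the called probes still tested, 54 of 149 kept their call without 8 h c and 63 of 159 without 10 h a. The numbers were 140 of 158 without 8 h b and 127 of 148 without 10 h c. Every named call for chitin deacetylases, glutathione transferases, amino acid transporters and DNA replication was lost on leaving out some single array. Of the 11866 probes, 167 passed an adjusted p of 0.05 in limma, which is 1.41% of those tested. There were 87 probes higher at 10 h (0.733%) and 80 lower (0.674%), matching 70 different genes in each direction. Without adjustment 1414 probes had p under 0.05. The rises were the steeper: 79 of 87 were at least 2-fold and 26 at least 4-fold, against 50 and 8 of the 80 falls. The median change was 1.57 among the probes called higher, -1.16 among those called lower and -0.01 over all probes tested.

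The number of calls depended on the arrays used. It was 215 without 8 h b, 273 without 10 h c and 359 without both, but 69, 54, 70 and 97 without 8 h a, 8 h c, 10 h a and 10 h b. A fit on the 6 arrays alone, without the spread of the other stages, called 23 probes, and quantile normalization called 88. After quantile normalization 25 of the 41 named genes that passed still did, and CG10911, CG9083, Chs2, Cyp12a4, Cyp6a21, Cyp9b1, GstD1, GstO3, NKCC, Osi6, Pxn, RnrL, dyl, fbp, gb and mnd did not (adjusted p from 0.0612 to 0.82). Of the 41 named genes that passed, 9 also passed in the fit on the 6 arrays alone: CG7997, CG11570, Ugt36D1, tsl, CG8483, Cyp6a21, Fer3, CG8172 and dyl. Missing values were uneven: 1813 probes had at least 2 values at 10 h but fewer than 2 at 8 h, and 264 had the reverse, and these probes were not tested.

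**Figure D1:**
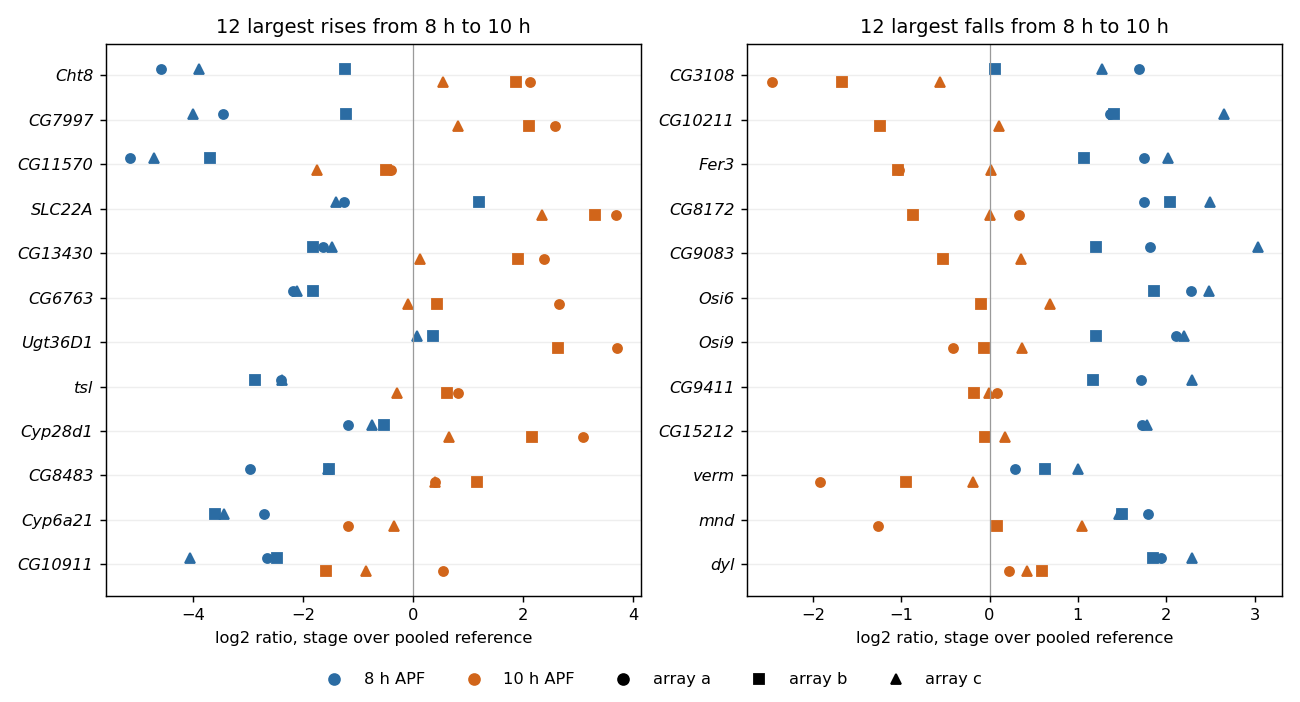
Log2 ratio of stage over pooled reference (horizontal axis) on each array of 8 h (blue) and 10 h (orange) for the 12 largest rises (left) and 12 largest falls (right); circles, squares and triangles are arrays a, b and c, and absent marks are missing values. The stages do not overlap for any gene shown, because that was a condition of the choice, and 10 h array c (orange triangles) is the 10 h array nearest to 8 h for most of the rises.

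The steepest rise was that of Cht8, which encodes a chitinase. Its log2 ratios were -4.57, -1.24 and -3.88 on the 8 h arrays and 2.12, 1.86 and 0.54 on the 10 h arrays. All 10 h values lay above the reference and all 8 h values below it, with 8 h b standing above a and c. The change was 4.74 ± 0.69 (SE), a 26.7-fold rise (adjusted p = 0.000224). CG7997, an alpha-galactosidase family gene, had nearly the same size of change. It went from -3.45, -1.23 and -3.99 to 2.58, 2.10 and 0.81, a rise of 4.72 ± 0.60 or 26.3-fold (adjusted p = 6.3e-05). In bulk tissue, more cells of a type and more RNA per cell cannot be told apart for any of these genes, nor fewer cells and less RNA per cell for those that fell.

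SLC22A, a member of the organic cation and anion carrier family, rose from -1.26, 1.19 and -1.39 to 3.69, 3.30 and 2.33. Its change was 3.60 ± 0.46 (adjusted p = 6.3e-05), and 8 h b was again the highest of the 8 h arrays. CG11570 was far below the reference at 8 h, at -5.13, -3.69 and -4.70, and stood at -0.41, -0.49 and -1.75 at 10 h. Although it rose by 3.63 ± 0.46 or 12.3-fold, it was still below the reference at 10 h on every array, and reached a mean of 3.26 at 12 h.

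The other leading rises were of varied kinds. CG13430, a trypsin-like serine protease gene outside the digestive families described below, had -1.64, -1.81 and -1.47 at 8 h and 2.38, 1.90 and 0.12 at 10 h, a change of 3.11 ± 0.41. The 8 h arrays lay close together for it and the 10 h arrays were widely spread, with c lowest. The astacin metalloprotease gene CG6763 showed the same shape, from -2.17, -1.82 and -2.11 to 2.64, 0.44 and -0.10 (change 3.03 ± 0.49). torso-like (tsl), known for its part in activating the Torso receptor tyrosine kinase, rose by 2.94 ± 0.54, from -2.40, -2.88 and -2.38 to 0.82, 0.62 and -0.29. CG8483 and CG10911, genes whose roles are not described here, rose by 2.66 ± 0.52 and 2.43 ± 0.52. The CG8483 call was lost without 8 h a (adjusted p = 0.0735) and its other probe changed by only 0.35. The CG10911 call was lost without 8 h c or 10 h a (adjusted p = 0.138 and 0.147) and after quantile normalization, where the change was 1.5 (adjusted p = 0.328).

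Cytochrome P450 enzymes, many of which detoxify foreign compounds, had members called higher and none called lower. Of 64 P450 genes tested, 5 were higher at 10 h and none lower, against 0.733% and 0.674% of all probes. The median change over the list was 0.31 against -0.01 over all probes. In 48 of the 64 the change was positive, and in 21 every 10 h array lay above every 8 h array, as was so for 11.7% of all probes tested. In 5 every 10 h array lay below every 8 h array, as was so for 11.4% of all probes, and the lowest change was -1.60. The mean over the 34 P450 genes measured on all 6 arrays was -1.25, -1.44 and -1.20 at 8 h and -0.72, -0.90 and -0.52 at 10 h. The count of 5 was 2 without 8 h c, 2 with 1 gene lower without 10 h c, 2 after quantile normalization and 1 in the fit on the 6 arrays alone, while the median was 0.31 after quantile normalization too.

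Cyp28d1 led the family. It stood at -1.17, -0.52 and -0.76 at 8 h and at 3.09, 2.16 and 0.65 at 10 h, with every array of the later stage above every array of the earlier. The change was 2.79 ± 0.39, or 6.9-fold (adjusted p = 0.000154). Cyp6a21 rose by 2.48 ± 0.59, from -2.71, -3.60 and -3.43 to -1.19 on 10 h a and -0.35 on 10 h c, with no value on b. That call rested on few arrays and was lost without 8 h b (adjusted p = 0.0624) or 8 h c (adjusted p = 0.116). Cyp9b1 rose by 1.46 ± 0.26 and stayed below the reference, at -0.44, -0.89 and -0.99 at 10 h. Cyp12a4, which is one of the mitochondrial P450 genes, was at -5.07, -3.80 and -4.90 at 8 h and at -2.98, -3.70 and -2.40 at 10 h. Its rise of 1.57 ± 0.40 (adjusted p = 0.0412) left 10 h b just above 8 h b, and the call was lost without 8 h a, 8 h c, 10 h a or 10 h c (adjusted p from 0.123 to 0.233) and with robust moderation (0.0533). After quantile normalization the change of Cyp12a4 was 0.50 (adjusted p = 0.82) and that of Cyp9b1 0.92 (adjusted p = 0.25). The fifth was Cyp12c1, named after its value was seen, at 1.22 ± 0.23 with 2 arrays a stage. The UDP-glycosyltransferase gene Ugt36D1, another kind of detoxification enzyme, rose by 2.96 ± 0.33, from 0.35 and 0.07 on 8 h b and c to 3.70 and 2.64 on 10 h a and b.

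Of 27 genes tested for glutathione transferases, which conjugate glutathione to reactive compounds, none was higher and 2 were lower, with a median change of -0.24. Over all probes 0.733% were higher and 0.674% lower, and the difference between this list and the P450 genes was not tested. GstD1 went from 0.04, -0.54 and 0.44 to -1.48, -1.52 and -0.45, a change of -1.13 ± 0.29 in which 10 h c lay above 8 h b. GstO3 changed by -1.05 ± 0.27. Both calls were lost without 8 h a, 8 h c, 10 h a or 10 h b (adjusted p from 0.164 to 0.267 for GstD1 and from 0.087 to 0.297 for GstO3), and also once each array was centred on its median (adjusted p = 0.0552 and 0.051).

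Genes of chitin metabolism split in direction. Of 32 genes for chitinases, chitin-binding and peritrophic matrix proteins, 2 were higher and 2 were lower, against 0.733% and 0.674% of all probes. The median was 0.07 (-0.08 after quantile normalization). Beside Cht8, the gut chitin synthase gene Chs2 rose, from 0.32, 1.13 and 0.11 to 2.17, 2.22 and 1.0. Its change was 1.28 ± 0.32 (adjusted p = 0.0353), 10 h c lay below 8 h b, and the call was lost without 8 h a, 8 h c, 10 h a or 10 h b (adjusted p from 0.163 to 0.214).

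The chitin deacetylase-like genes vermiform (verm) and serpentine (serp), known for their part in the maturation of chitin in the trachea, fell. verm stood at 0.29, 0.63 and 1.0 at 8 h and at -1.91, -0.95 and -0.19 at 10 h, a change of -1.65 ± 0.40, and all 4 of its probes passed, with changes from -2.39 to -1.65. serp went from 0.06, 0.33 and 1.28 to -1.68, -1.22 and -0.22 (change -1.60 ± 0.35), with both probes passing. The stages do not overlap for either gene, and in both the 10 h values were spread over more than a log2 unit with c highest. The verm call was lost without 8 h a, 8 h c, 10 h a or 10 h b (adjusted p from 0.0558 to 0.243), and that of serp without 8 h c, 10 h a or 10 h b (0.0624 to 0.15).

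Among genes for lysosomal proteins 2 of 29, CG7997 and Cln3, were higher and none lower (median 0.11), against 0.733% and 0.674% of all probes. In 4 every 10 h array lay above every 8 h array and in 7 below, against 11.7% and 11.4% of all probes. The lowest change was -0.87. Cln3, the counterpart of a human gene for a lysosomal membrane protein, rose from -0.18, 0.34 and -0.07 to 2.31, 2.43 and 1.11. Its change was 1.92 ± 0.26, or 3.78-fold (adjusted p = 8.83e-05). LManV, an alpha-mannosidase gene, had a change of 2.13 ± 0.63 that did not pass (adjusted p = 0.1).

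Of 35 genes for sugar and solute transporters 1 was higher and 2 were lower on the probes that stood for them, with a median of 0.02. Over all probes 0.733% were higher and 0.674% lower. Picot, named after its values were seen, rose on 2 of its other probes by 1.75 and 1.62. NKCC, a sodium-potassium-chloride cotransporter gene, stood at 1.79 and 0.15 on 8 h b and c and at 3.36, 3.54 and 2.31 at 10 h. It rose by 2.10 ± 0.39 (adjusted p = 0.01), a call lost without 10 h a (adjusted p = 0.0522), in the fit on the 6 arrays alone (0.197) and after quantile normalization, where the change was 1.29 (0.0776). The amino acid transporter genes minidiscs (mnd) and genderblind (gb) fell. mnd stood at 1.79, 1.5 and 1.46 at 8 h and was widely spread at 10 h, at -1.26, 0.09 and 1.05, a change of -1.62 ± 0.37. gb went from 1.11, 0.74 and 0.58 to -0.37, -0.57 and -0.36, a change of -1.24 ± 0.29 with the 10 h arrays close together. Both were lost without 8 h a, 8 h c, 10 h a or 10 h b (adjusted p from 0.0548 to 0.208 for mnd and from 0.0504 to 0.164 for gb).

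Some further genes are given after their values were seen. Trehalase (Treh), which splits the blood sugar trehalose, had the highest 10 h mean of all probes tested on 1 of its probes, at 6.12, 4.92 and 3.58 against 0.22, 3.04 and -1.25 at 8 h. That probe rose by 4.20 ± 0.71 (adjusted p = 0.00122), while the other 2 probes changed by 2.98 and 2.02 and did not pass, so the probes of the gene disagreed on the call. CG7888 rose on both probes called, by 2.70 ± 0.42 and 2.26 ± 0.45. Shmt, the serine hydroxymethyltransferase of one-carbon metabolism, rose by 2.01 ± 0.35, from -1.47, -1.25 and -1.21 to 1.47, 1.31 and -0.68. Pect, a phospholipid synthesis enzyme gene, rose by 1.62 ± 0.29, and Pex14, a gene of peroxisomal protein import, by 1.37 ± 0.28. A mixture of 10 stages in equal parts would hold the ratio of a pooled stage to 10-fold, or 3.32 on the log2 scale; 10 h was not in the mixture, and 3 probes had 10 h means above that limit, 2 of Treh (4.87 and 3.65) and 1 of CG5849 (3.39).

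Of 22 cell death genes tested, 1 was higher and none lower, against 0.733% and 0.674% of all probes, and the median change was 0.00. Damm, a caspase gene, was the gene that passed. It stood at 0.04, 0.44 and -0.06 at 8 h and at 1.41, 1.40 and 1.30 at 10 h with little spread among the 10 h arrays, and its change was 1.23 ± 0.23, or 2.34-fold (adjusted p = 0.00396). The gene has another probe tested that did not pass. Dronc, the initiator caspase gene, had -0.43 to 0.14 at 8 h and 1.69 and 0.17 on 10 h a and c, a change of 1.09 ± 0.52 that did not pass (adjusted p = 0.406). Dark, whose product is the scaffold on which Dronc is activated, had -1.22 and -1.21 on 8 h b and c and -0.44 and -0.53 on 10 h b and c, a change of 0.73 ± 0.23 (adjusted p = 0.142). Diap2, an inhibitor of apoptosis gene, changed by -0.59 ± 0.21 (adjusted p = 0.207). reaper, hid and Diap1 were not analysed here.

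Genes of the cuticle and apical extracellular matrix were among the falls. Of 41 cuticle genes tested, 4 were lower and none higher, against 0.674% and 0.733% of all probes, with a median change of -0.20. The number lower was 2 without 8 h a, 8 h c or 10 h b, 1 without 10 h c and 8 without 8 h b, and after quantile normalization 3 were lower and 1 higher. The Osiris genes encode a family of insect membrane proteins, many of them expressed in cells that secrete cuticle. Osi6 went from 2.28, 1.86 and 2.48 to -0.10 and 0.68 on 10 h b and c (change -1.91 ± 0.37). Osi9 went from 2.11, 1.21 and 2.20 to -0.41, -0.07 and 0.37 (change -1.87 ± 0.31, 3.67-fold, adjusted p = 0.00114). Osi20 fell by 1.34 ± 0.21 on the log2 scale over 2 arrays a stage, and for all 3 genes the 8 h arrays lay above the 10 h arrays.

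Edg78E, a cuticle protein gene first found by its response to ecdysone, went from 1.27, 0.69 and 1.49 to -0.29 and -0.06, a change of -1.33 ± 0.24. Its call was lost without 8 h a or 8 h c (adjusted p = 0.0649 and 0.0685). dusky-like (dyl), which encodes a zona pellucida domain protein of the apical matrix, went from 1.94, 1.85 and 2.29 to 0.22, 0.60 and 0.42 (change -1.61 ± 0.28, adjusted p = 0.00169). Cuticle genes that did not pass included Osi7 with a change of -2.08 ± 0.66, Osi14 with -1.84 ± 0.57 and, in the other direction, Pcp with 2.15 ± 0.58. These examples were picked after their values were seen.

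Among the other leading falls, CG3108 stood at 1.69, 0.06 and 1.27 at 8 h and at -2.47, -1.67 and -0.56 at 10 h. Its change was -2.58 ± 0.52, or 5.96-fold lower, and the call was lost without 8 h a, 8 h c or 10 h a (adjusted p from 0.0519 to 0.0863). Fer3, a basic helix-loop-helix transcription factor gene, went from 1.75, 1.06 and 2.02 to -1.02, -1.04 and 0.02, a change of -2.29 ± 0.45 that narrowly missed the threshold without 8 h c (adjusted p = 0.0519). CG10211 fell by 2.38 ± 0.43 on the log2 scale, CG8172 by 2.27 ± 0.29, CG9083 by 2.11 ± 0.41, CG9411 by 1.76 ± 0.34 and CG15212 by 1.69 ± 0.24. Without 8 h c the calls of CG9083 and CG9411 were lost (adjusted p = 0.0551 and 0.0658). CG12164, named after its value was seen, had the deepest fall of all called probes, -2.82 ± 0.69, but its stages overlapped because 8 h b stood at -0.95.

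Genes of DNA replication and the cell cycle were lower where they passed. Of 26 tested, 3 were lower and none higher, against 0.674% and 0.733% of all probes. In 6 the change was positive, and the median was -0.31. None passed without 10 h a or in the fit on the 6 arrays alone, none of the 22 and 19 still tested passed without 8 h a or 8 h c, where Orc1 had too few values to be tested, and 5 were lower without 10 h c. PCNA, the sliding clamp of DNA polymerase, went from 0.06, -0.73 and 0.15 to -1.78, -1.23 and -1.36, a change of -1.28 ± 0.28 (adjusted p = 0.0155). Orc1, of the origin recognition complex, went from 0.30 and 0.15 on 8 h a and c to -0.88, -0.49 and -0.53 (change -0.86 ± 0.17). RnrL, the large subunit of ribonucleotide reductase, changed by -0.91 ± 0.21, with 10 h c at -0.19 above 8 h b at -0.32. Mcm2, of the replicative helicase, had a change of -0.67 ± 0.24 that did not pass. Leaving out 10 h a ended the Orc1 call (adjusted p = 0.0698), leaving out 8 h a, 8 h c or 10 h a that of PCNA (0.111 to 0.128), and leaving out any array but 8 h b and 10 h c that of RnrL (0.112 to 0.195).

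Of 20 genes of glycolysis and trehalose metabolism 1 was lower and none higher on the probes that stood for the genes (median -0.09). Over all probes 0.674% were lower and 0.733% higher. Treh was a member with a rise called on another probe. The fall was that of fbp, the fructose-1,6-bisphosphatase of gluconeogenesis, which went from 0.79, 0.15 and 0.88 to -1.18, -0.93 and 0.12. The change was -1.27 ± 0.27, with 10 h c just below 8 h b, and the call was lost without 8 h a, 8 h c, 10 h a or 10 h b (adjusted p from 0.067 to 0.125). The chaperonin subunit gene CCT5, at -0.83 ± 0.21, and the mitochondrial ribosomal protein gene mRpS10, at -0.76 ± 0.19, are further falls named after their values were seen.

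Markers of haemocytes, the blood cells that can adhere to internal organs, had mostly lower values at 10 h, but only 1 passed. Of 11 tested 1 was lower and none higher, against 0.674% and 0.733% of all probes. In 7 every 10 h array lay below every 8 h array, as was so for 11.4% of all probes, and the median change was -0.86. The mean over the 6 of them measured on all arrays was 1.28, 1.24 and 1.21 at 8 h and 0.47, 0.69 and 0.30 at 10 h. Whether they had a part in the falls of other genes was not tested. Pxn, the peroxidasin gene, went from 1.62, 1.62 and 1.33 to 0.07 and 0.32 on 10 h a and c. It is the gene of the haemocyte list and of the 21 matrix and adhesion genes that passed, and it did so at the edge (change -1.33 ± 0.34, adjusted p = 0.04997). The call was lost in all 11 alternative settings in which it could be tested, with adjusted p from 0.0508 (robust moderation) to 0.175 (without 8 h a), 0.0532 with the replicate letter as a block. The collagen IV genes vkg and Col4a1, with changes of -1.22 ± 0.38 and -1.27 ± 0.58, and the phagocytosis receptor gene NimC1, with -0.92 ± 0.34, did not pass, although their stages did not overlap.

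No marker of the other cell types considered passed. That holds for 9 midgut progenitor, 7 enterocyte, 7 enteroendocrine, 12 visceral muscle, 8 fat body, 8 salivary gland and 7 Malpighian tubule genes tested, whose list medians lay between 0.01 and 0.29. After quantile normalization the median of the enterocyte list was -0.19. The member with the largest change in each list was klu at -0.48 ± 0.23 for progenitors, betaTry at 0.96 ± 0.76 for enterocytes, Mip at 0.67 ± 0.38 for enteroendocrine cells, Mp20 at 0.93 ± 0.36 for muscle, Fbp1 at -0.78 ± 0.61 for fat body, fkh at 0.54 ± 0.34 for salivary gland and CG3285 at 0.81 ± 0.27 for tubules.

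Digestive enzyme genes were on average below the reference at both stages, and none passed on the probe that stood for it, although Treh, a member of the carbohydrase list, did on 1 of its other probes. The 28 tested genes of the trypsin and Jonah serine proteases had a median change of 0.67, and 27 of the changes were positive. That direction depended on the scaling: after quantile normalization the median was -0.19 and 10 changes were positive. Their mean over the 26 measured on all arrays was -4.17, -3.06 and -3.67 at 8 h and -3.54, -3.21 and -2.07 at 10 h, so that 10 h a and b lay within the range of the 8 h arrays and c above it. The largest change was that of thetaTry, 1.90 ± 0.50 (adjusted p = 0.0525), with overlapping stages. These genes have near-identical copies, so single members are uncertain. The 26 digestive carbohydrase, lipase and lysozyme genes had a median of 0.76, and their mean over 17 members was -2.72, -0.91 and -2.25 at 8 h against -1.42, -1.37 and -0.39 at 10 h, again overlapping through 8 h b. After quantile normalization that median was 0.15.

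**Figure D2:**
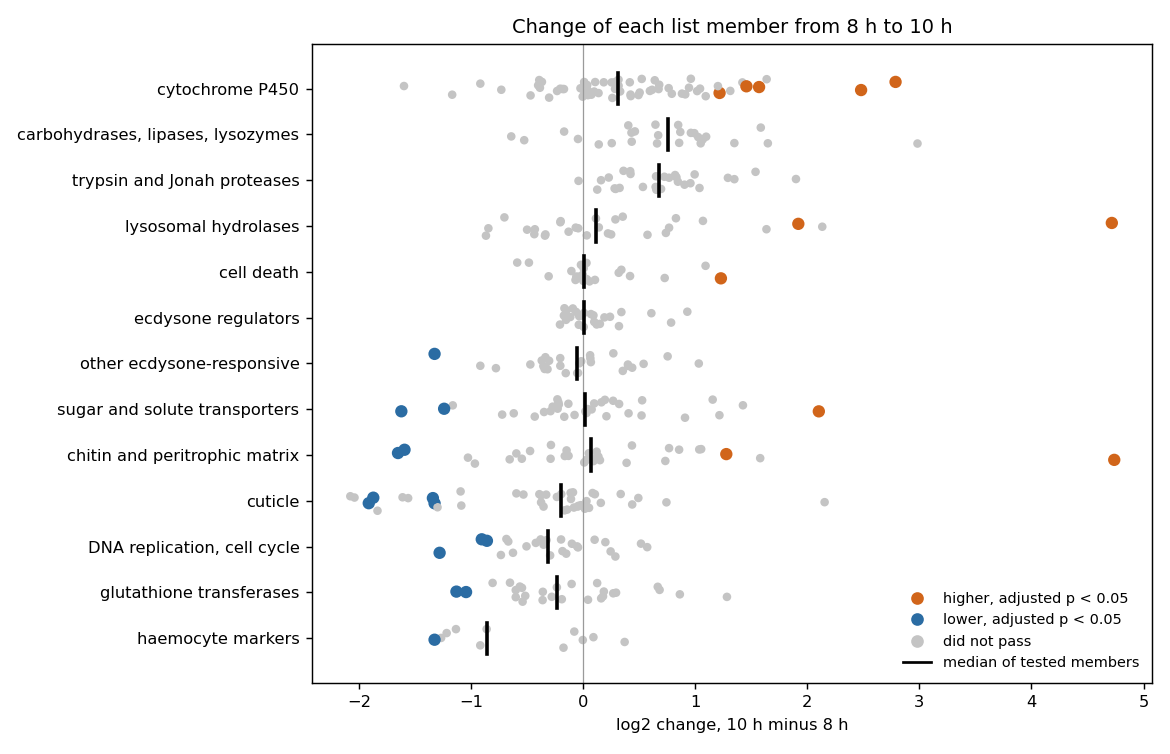
Log2 change from 8 h to 10 h (horizontal axis) of every tested member of 13 gene lists, with 1 probe a gene; orange and blue dots passed the adjusted p threshold, grey dots did not, black bars are medians over tested members, and the vertical scatter within a list has no meaning. P450 genes that passed are all on the right and cuticle, DNA replication and glutathione transferase genes that passed are all on the left, while the protease and carbohydrase lists lie mostly right of 0 with no member passing on the probe shown.

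No gene among the regulators through which ecdysone acts passed in this interval. None of the 25 receptors and early regulators tested passed, in a comparison where 1.41% of all probes did, so that a count of 0 does not set them apart. Their changes ran from -0.21 to 0.93, and the median was 0.01. EcR, measured on b and c, stood at 0.44 and -0.06 at 8 h and at 0.50 and -0.15 at 10 h (change -0.01 ± 0.36). Its partner usp changed by -0.04 ± 0.26 and br, the Broad transcription factor gene, by 0.00 ± 0.25, from 0.68, 0.76 and 0.30 to 0.77, 0.69 and 0.29.

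ftz-f1, a nuclear receptor gene that marks the mid-prepupal stage between ecdysone pulses, was above the reference at both times, at 1.72, 1.60 and 1.16 and then at 2.34, 1.29 and 1.06. Its change was 0.07 ± 0.32. From 6 h to 8 h, in a comparison that shares the 8 h arrays, it had risen by 1.57 and br by 0.98 (adjusted p = 0.00548 and 0.027). From 10 h to 12 h, which shares the 10 h arrays, they changed by -1.15 and -0.58, with br on 2 arrays at 12 h. No call is given for these later changes.

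Hr39, another nuclear receptor gene, stood at -0.79, -0.47 and -0.74 at 8 h and at 0.54, -0.00 and -0.20 at 10 h, without overlap, but the change of 0.78 ± 0.27 did not pass (adjusted p = 0.176). ERR, the estrogen-related receptor gene of larval carbohydrate metabolism, changed by 0.93 ± 0.33 (adjusted p = 0.206). Hr3, Blimp-1 and Eip93F, known targets of the hormone in prepupae, changed by -0.06 ± 0.40, -0.15 ± 0.28 and -0.17 ± 0.52. Eip74EF, Eip75B and Hr4 were not analysed here. Among 29 other genes described as ecdysone-responsive, Edg78E was the 1 that passed, as a fall, where 0.674% of all probes were lower. The median was -0.05.

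**Figure D3:**
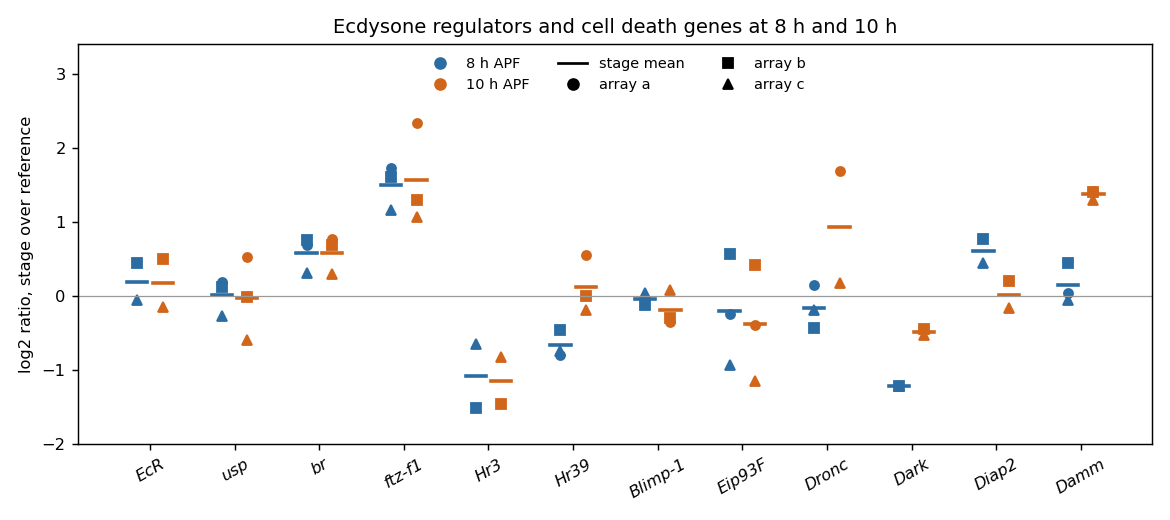
Log2 ratio of stage over reference (vertical axis) on each array of 8 h (blue) and 10 h (orange) for ecdysone regulators and cell death genes; circles, squares and triangles are arrays a, b and c, and bars are stage means. EcR, usp, br and ftz-f1 overlap between the stages, while Damm lies at 1.30 to 1.41 on all 10 h arrays, above its 8 h arrays.

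Further lists had no member that passed in either direction. They were the 24 genes of EGFR, JNK, Notch and other signals, 21 of the V-ATPase, 30 of autophagy, 14 of antimicrobial defence, 48 of oxidative phosphorylation, 26 of cytosolic ribosomal proteins, 27 of the proteasome and 10 of heat shock. Their medians lay between -0.24 (proteasome) and 0.45 (heat shock).

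Whether the same genes also differed between stages on either side was asked of the 6 h and 12 h arrays. Their values do not enter the changes from 8 h to 10 h, but like all 33 arrays they share in the model's estimate of spread, on which the calls rest in both contrasts. Of 85 probes called higher at 10 h that could be tested, 66 (77.6%) were higher at 12 h than at 6 h, against 8.45% of all probes, and 1 was lower. Of 72 called lower, 49 (68.1%) were lower at 12 h, against 12.7% of all probes, and none was higher. The median change from 6 h to 12 h was 1.76 among the risers and -1.03 among the fallers, against -0.04 over all probes. Of the 115 probes that changed the same way, the number followed that of the calls when an array was left out: 47, 43, 51 and 74 without 8 h a, 8 h c, 10 h a and 10 h b, and 185 without 10 h c. The 1 probe that went the other way was CG17036, which rose by 1.11 from 8 h to 10 h and changed by -0.84 from 6 h to 12 h.

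Leading rises were also steep in those other arrays. From 6 h to 12 h CG11570 rose by 8.28 ± 0.47, CG7997 by 7.93 ± 0.61 and Cht8 by 7.71 ± 0.70. Cyp12a4 rose by 4.91 ± 0.40 and Chs2 by 3.25 ± 0.32, both far more than between 8 h and 10 h. RnrL fell by 2.13 ± 0.21 on the log2 scale, PCNA by 2.04 ± 0.29 and gb by 2.64 ± 0.29. By contrast verm, serp, mnd, Osi20 and GstD1 did not pass between 6 h and 12 h, with changes of 0.69, 0.05, 0.47, 0.02 and -0.22.

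**Figure D4:**
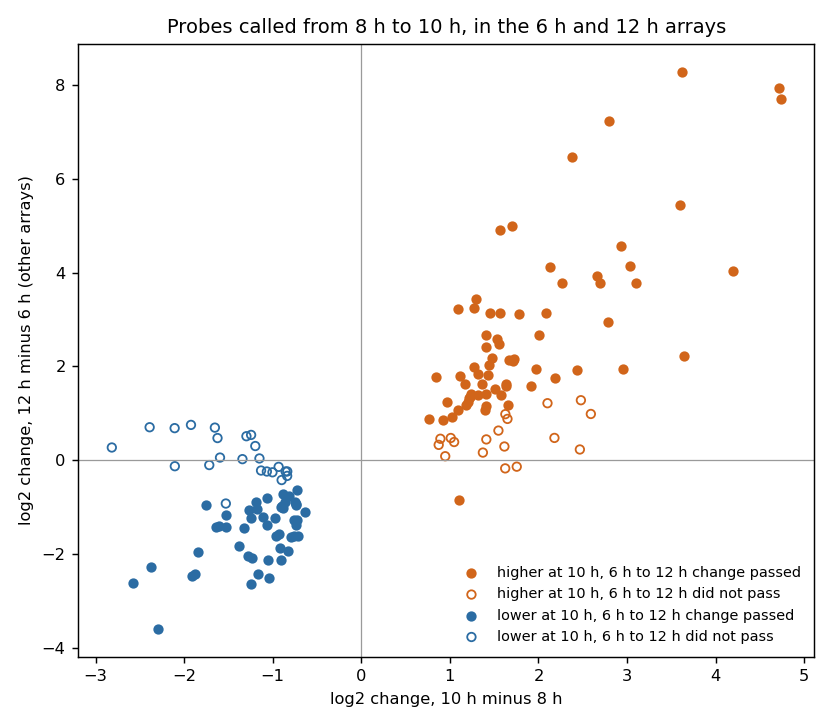
Each dot is 1 probe called from 8 h to 10 h (orange higher, blue lower), with its log2 change from 8 h to 10 h on the horizontal axis and its log2 change from 6 h to 12 h, on other arrays, on the vertical axis; filled dots passed the threshold from 6 h to 12 h. Filled orange dots lie above 0 except for CG17036, and filled blue dots all lie below 0.

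The courses over the 11 stages varied among the called probes. Of the 87 risers, 27 had their highest stage mean at 12 h and 13 at 18 h BPF, and 24 had their lowest at 6 h. Of 78 fallers measured in every stage, 18 were highest at 6 h, and 22 were lowest at 12 h and 17 at 0 h. The highest and lowest stages were sought among all 11 stages. Counts for 8 h and 10 h are not given, since the probes were chosen on the values of those stages. That choice also bears on the counts given for the other stages. The same shares over all tested probes were not counted, so these counts have no background beside them.

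Values for the steps on either side, which share the 8 h or the 10 h arrays, are set beside the change from 8 h to 10 h. CG11570 changed by 0.51 from 6 h to 8 h, 3.63 from 8 h to 10 h and 4.14 from 10 h to 12 h, and Cyp12a4 by -0.80, 1.57 and 4.13. Ugt36D1 went by 0.88, 2.96 and -1.89, and NKCC by 1.04, 2.10 and -1.93, so that both were highest at 10 h. mnd changed by 2.61, -1.62 and -0.51, verm by 2.11, -1.65 and 0.24, and dyl by 1.56, -1.61 and -1.35. mnd and dyl had their highest stage mean at 8 h, and verm at 2 h. These genes were named for their change from 8 h to 10 h, which favours a peak at 10 h for rises and at 8 h for falls.

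**Figure D5:**
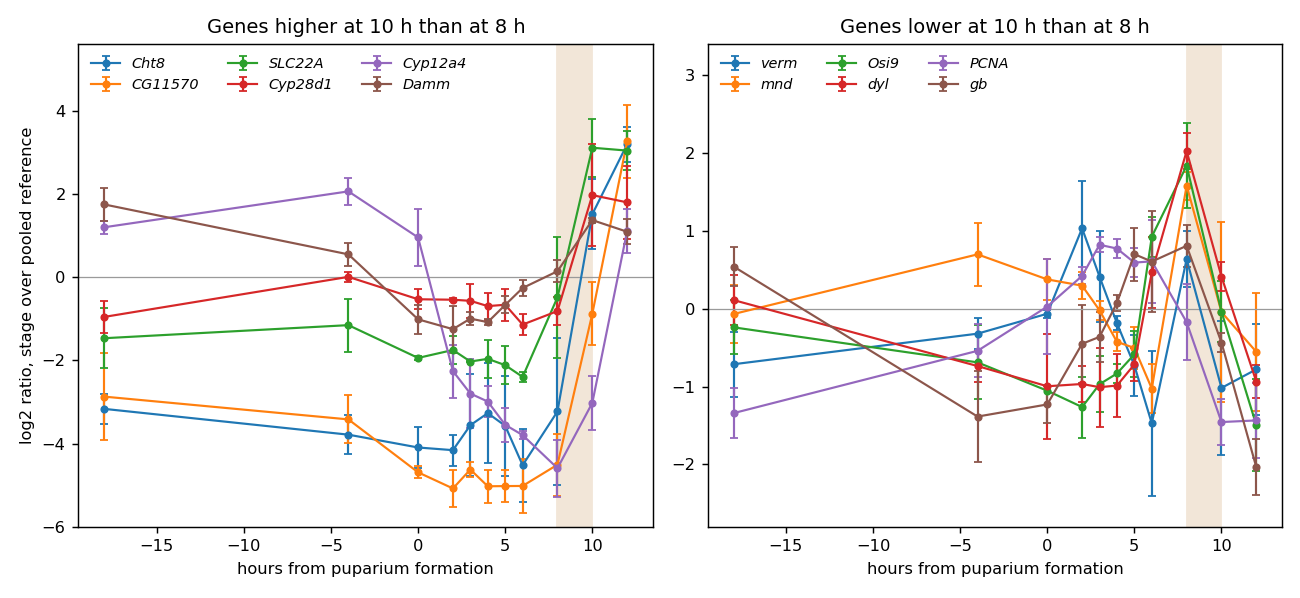
Mean log2 ratio of stage over reference (vertical axis) against hours from puparium formation (horizontal axis) for 6 genes that rose (left) and 6 that fell (right) between 8 h and 10 h, the shaded interval; error bars are SD over the arrays with a value, up to 3. Cht8 and CG11570 go on rising to 12 h, Cyp12a4 returns toward its level before puparium formation, and mnd, Osi9 and dyl peak at 8 h. The choice of genes by their change from 8 h to 10 h favours such peaks.

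Levels in the feeding larva, at 18 h BPF, set against the mean of 3, 4 and 5 h separated the risers further. The values of these 12 arrays do not enter the change from 8 h to 10 h, but they too share in the estimate of spread. Of 83 risers tested, 33 (39.8%) were higher in the larva than at 3 to 5 h, against 9.89% of all probes, and 14 (16.9%) were lower, against 18.1%. Of 74 fallers tested, 28 (37.8%) were lower in the larva and 4 (5.41%) higher. Cyp6a21, Cyp12a4, CG10911 and Damm were among the risers higher in the larva, by 4.33, 4.31, 2.81 and 2.66. Cht8, CG13430 and Cyp28d1 differed by 0.30, 0.23 and -0.31 and did not pass, and Chs2 and Cln3 were lower in the larva, by -1.66 and -2.49.

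The step at the late larval hormone rise, from 4 h BPF to 0 h, was used as a further reference. Over all probes, 197 of 9292 (2.12%) changed more upward from 8 h to 10 h than from 4 h BPF to 0 h, and 108 (1.16%) more downward, in a direct test of the difference. The sum of 305 was 195 without 8 h c, 196 without 8 h a and 201 without 0 h b. Damm showed opposite changes, 1.23 ± 0.23 from 8 h to 10 h and -1.56 ± 0.23 from 4 h BPF to 0 h. Cht8 changed by 4.74 ± 0.69 and -0.31 ± 0.69, and PCNA by -1.28 ± 0.28 and 0.57 ± 0.29.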

How the data were processed

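The authors' deposited table holds 1 log2 ratio of midgut stage sample (Cy5) to pooled reference (Cy3) per probe and array for 33 arrays; its base, its direction, the background correction and the normalization were not given in the sources used here. The use of base 2 and of stage over reference rests on a check on the reference, a mixture of 10 stages: the log2 of the mean ratio over those stages had an SD of 0.117 over 7257 probes for stage over reference on base 2 and of 0.509 with the direction turned. Gene names came from the array platform's annotation, updated through a RefSeq table, and 10828 probes had 1 gene. Scanner signals were not used, so it was not known which spots were near background.

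One linear model with a coefficient per stage was fitted to all 33 arrays with limma 3.58.1 (lmFit, eBayes, R 4.3.3). Each contrast was adjusted by Benjamini-Hochberg over all probes with 2 or more values in each stage compared, and an adjusted p under 0.05 was called. Errors are the model's SE. The procedure was tested on simulated data with independent noise between arrays. The simulation did not hold the correlated deviations of same-lettered arrays given below, so it does not show their effect on the calls. One probe, the one with most values, stood for a gene in lists. Named were the 12 largest rises and 12 largest falls called without overlap of the stages, up to 4 called members per gene list and direction, the main ecdysone and cell death regulators, and the largest change in each marker list. The comparison, the gene lists and the tests were chosen with earlier results of these data known; the larval contrast was added after its stages had been seen. Deviations of same-lettered 8 h and 10 h arrays correlated at 0.36, 0.23 and 0.38 over 6898 probes, so letters may pair arrays. The main fit did not use this pairing, which entered only in the alternative with the replicate letter as a block. Centring, quantile normalization, the arrays in the fit, the replicate block, the filter on missing values, robust moderation, array weights and each array left out were tried as alternatives. P-values rest on the spread between arrays within stages, pooled over all stages of the fit and moderated across probes. It is not the spread at 8 h and 10 h alone. The labels describe the arrays of a stage as independent samples.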

Additional observations from a re-analysis of the deposited data

Results flagged for a closer look

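For 21 named genes the change from 8 h to 10 h differed from that between 4 h before puparium formation and puparium formation (0 h), by a limma test of the difference over 9292 probes. All but Dark among them had passed from 8 h to 10 h, and most had been picked for the size of that change, so the differences are not independent of the choice. Differences are log2 changes from 8 h to 10 h minus those from 4 h BPF to 0 h.

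The largest differences were those of Cht8 (5.05 ± 0.98), CG11570 (4.90 ± 0.66), CG7997 (4.48 ± 0.86) and SLC22A (4.38 ± 0.66). Of these, CG11570 had changed by -1.27 ± 0.46 and SLC22A by -0.79 ± 0.46 in the earlier step. Cht8 had changed by -0.31 ± 0.69 and CG7997 by 0.24 ± 0.61. The difference was 3.07 for CG13430, 3.00 for CG6763 and 2.84 for tsl, with earlier changes of 0.04, 0.03 and 0.10. Where the earlier change was near 0, the difference is largely the change from 8 h to 10 h restated. Among detoxification genes the difference was 3.59 for Cyp6a21, 3.32 for Cyp28d1, 2.81 for Ugt36D1 and 2.68 for Cyp12a4, and it was -1.80 for GstD1. Their earlier changes were -1.11, -0.54, 0.15, -1.11 and 0.67. NKCC differed by 3.01, with an earlier change of -0.91.

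Of the cell death genes, Damm differed by 2.79 ± 0.33 (adjusted p = 1.24e-05), with changes of 1.23 and -1.56 in the later and earlier step. Dark differed by 1.18, with changes of 0.73 and -0.45. The DNA replication genes PCNA, RnrL and Orc1 differed by -1.85, -1.16 and -0.98, and their earlier changes were 0.57, 0.25 and 0.12. The remaining falls were serp with -2.06, CG15212 with -1.46 and Osi20 with -1.29, after earlier changes of 0.46, -0.23 and -0.05.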

How the results depend on the processing

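No named gene that had passed changed direction under the alternatives tried, but the medians of the protease, enterocyte and chitin lists turned negative after quantile normalization (-0.19, -0.19 and -0.08). The 167 calls (87 higher, 80 lower, 115 also changed the same way from 6 h to 12 h) became 88 (49, 39 and 62) after quantile normalization, 23 (14, 9 and 16) with only the arrays of the stages compared, and 444 (209, 235 and 305) with array weights. With the replicate block, which uses the pairing by letter, there were 225 (115, 110 and 151), and of the named genes only Pxn lost its call. Leaving out 1 array at a time gave 54 to 273 calls, 36 to 143 higher, 18 to 130 lower and 43 to 185 changed the same way from 6 h to 12 h; without 8 h b and 10 h c together, chosen after seeing the data, there were 359 (155, 204 and 246). All 6 arrays but 8 h b moved the total by more than 1.5 times: 69 without 8 h a, 54 without 8 h c, 70 without 10 h a, 97 without 10 h b and 273 without 10 h c; without 8 h b the falls alone moved as much, to 122. The 305 probes whose 8 h to 10 h change differed from that of 4 h BPF to 0 h became 692 with array weights, 380 with the replicate block, 370 without 8 h b and 10 h c and 195 to 321 with 1 array left out, lowest without 8 h c (195), 8 h a (196), 0 h b (201) and 4 h BPF b (204). Centring moved the split from 52.1% to 59.8% higher, leaving out 8 h b to 43.3% and leaving out 8 h c to 66.7%. The other settings (centring, 1 or 3 values a stage, robust moderation) gave 150 to 164 calls. Of the 41 named genes called, 32 were lost with only the arrays compared, 16 after quantile normalization, 19 without 8 h c, 15 without 10 h a, 14 without 8 h a and 10 without 10 h b. The cause of these shifts was not tested. Having 3 arrays a stage, values missing unevenly and a table with no spot signals limit all comparisons.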
